A study of Bos indicus x Bos taurus with 11 samples.

Results

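The genes that encode the subunits of the oxidative phosphorylation system, from the mitochondrial and from the nuclear genome, were described in cultured skin fibroblasts of bovine fetuses. Members were the protein-coding rows on the mitochondrial chromosome and the rows whose gene symbol marks a subunit of complexes I to V (NDUF, SDH, UQCR, COX and ATP5 names). This gave 97 of 27398 features in the count table, 13 mitochondrial and 84 nuclear. Of these, 93 passed the filter on low counts. The 4 that did not pass were COX4I2, COX6B2, COX7B2 and COX8B, with at most 6 counts in a library. Nuclear subunits under other symbols, such as CYC1 of complex III and NDUFAB1 of complex I, were not members. The nuclear counts, sums and ratios below leave them out, so the nuclear sets are not complete.

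Oxidative phosphorylation is the respiratory chain of the inner mitochondrial membrane together with the ATP synthase. Complex I (NADH dehydrogenase), complex II (succinate dehydrogenase), complex III (the cytochrome bc1 complex) and complex IV (cytochrome c oxidase) pass electrons from food-derived carriers to oxygen, and all but complex II pump protons, whose return flow drives ATP synthesis by complex V. Every complex except complex II is built from the products of both genomes. The mitochondrial genome encodes hydrophobic core subunits, whose genes are transcribed as long precursors that are then cut. All other subunits are imported from the cytosol. Mitochondrial genes on the same strand therefore share precursors, and their values are not independent of each other.

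Total RNA was depleted of ribosomal RNA and sequenced from primary skin fibroblast cultures, 1 for each of 11 fetuses taken at day 105 of gestation. The fetuses were first-generation (F1) crosses between Brahman, an indicine breed, and Angus, a taurine breed. The control group, CON_B, held 5 fetuses conceived by artificial insemination (2 female, 3 male). The group with large offspring syndrome, LOS, an overgrowth condition of ruminants, held 6 fetuses (3 female, 3 male) from assisted reproduction whose body weight exceeded the 97th centile of controls. Method of conception and overgrowth cannot be told apart in this design, and every culture was grown in the same medium, DMEM with 10% fetal bovine serum. In bulk RNA, fewer cells of a type and less RNA per cell cannot be told apart either.

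The libraries held between 12084822 and 19297167 counts. Totals did not differ beyond their spread between the groups (exact permutation test, two-sided, p = 0.193 over 462 splits). All 10 fibroblast markers on the list used here (COL1A1, VIM, PDGFRA and others) were above 1 CPM (counts scaled to a common library size, the unit of levels throughout). Their sum spanned 56959 to 71813 CPM in CON_B and 57442 to 71946 CPM in LOS. The skeletal muscle markers summed to at most 1.48 CPM. The leukocyte markers summed to at most 1.03 CPM and the endothelial markers to at most 5.21 CPM. Only 6 of 10, 5 of 6 and 5 of 6 markers of these lists, in this order, were among the features. For keratinocytes this was 6 of 8, and for melanocytes and Schwann cells 3 of 6. Markers without a row, such as MYOD1 and PTPRC, could not be read. The keratinocyte markers, by their means mostly CDH1, spanned 1.78 to 10.3 CPM in CON_B and 0.053 to 21.8 CPM in LOS. The adipocyte markers, mostly LPL, spanned 9.52 to 38.3 and 13.1 to 24.2 CPM. Of the melanocyte markers, MITF ran from 38.6 to 151 CPM, and PMEL, a pigment protein gene, was at 69.1, 166, 42.8, 39.8 and 3.95 CPM in CON_B and 16.2, 37.3, 14.1, 45.2, 43.0 and 7.76 CPM in LOS. PMEL was highest in CON_B replicate 2 and lowest in CON_B replicate 5, the control with the largest mitochondrial share. The part of these cells in the values below was not tested. A list of 30 proliferation genes summed to 464 to 805 CPM in CON_B and 362 to 1007 CPM in LOS.

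The 13 mitochondrial genes carry no introns, so their levels could be compared per length, as CPM per kb of gene. COX1, the catalytic core of complex IV (chromosome M, 5687 to 7231), stood first in all 11 libraries, with 8059 ± 979.5 CPM per kb (mean ± SD, n = 11). ATP8, a small membrane subunit of complex V, stood second in all 11 with 5611 ± 686 CPM per kb, and COX3 was the third with 2919 ± 463. The order of these 3 did not depend on the library. ATP8 shares 40 of its 201 bases with ATP6, and ND4L shares 7 of its 297 with ND4. The sources used here do not say how reads over shared bases were assigned. Lengths were those of the annotated genes, with no correction for the 150-base reads. Values of short genes such as ATP8 and ND4L are thus not strictly comparable with those of longer genes. The order given is of these values, not of RNA amounts.

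ATP6, the proton channel subunit of complex V, and COX2, which receives electrons from cytochrome c, took the next places in the order at 2398 ± 452 and 2066 ± 187 CPM per kb. They exchanged places between libraries. ND4L and ND1 of complex I likewise exchanged places after these, at 1521 ± 238 and 1448 ± 231. ND3 came next in every library (894 ± 131).

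CYTB, the single mitochondrial subunit of complex III, ND5 and ND2 lay close together at 774 ± 113, 686 ± 133 and 607 ± 108 CPM per kb, and their order varied. ND4 (339 ± 52.3) was last but 1 in every library. ND6, the only member encoded on the opposite strand of the mitochondrial genome (13913 to 14440), was last in every library with 222 ± 64.8 CPM per kb. All 7 complex I genes of the mitochondrial genome thus lay below COX1, ATP8, COX3, ATP6 and COX2 by their means. The sources used here do not say whether the counting used strand, and ND5 and ND6 share 17 bases.

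**Figure D1:**
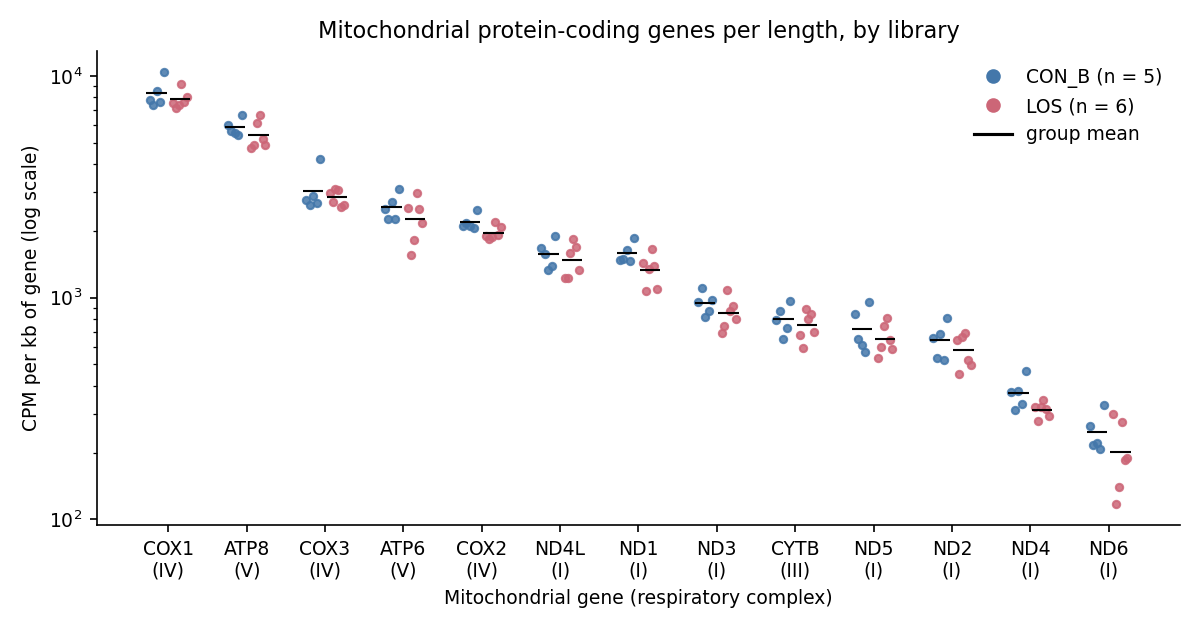
CPM per kb of gene (log scale) for the 13 mitochondrial protein-coding genes, in falling order of their mean. Each point is a library, blue for CON_B (n = 5) and red for LOS (n = 6), and black lines are group means; COX1, ATP8 and COX3 hold the first places in all libraries and ND6 the last.

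COX1 alone took 51.1% ± 1.72 of the counts of the 13 genes (range 48.9 to 54.3%, n = 11). Its share was 50.4% ± 1.39 in CON_B and 51.6% ± 1.90 in LOS. The share of ND1 was 5.98% ± 0.267 against 5.40% ± 0.561, and that of ND4 2.01% ± 0.101 against 1.83% ± 0.0827. For COX1 the means differed by less than the SD of either group, and for ND1 and ND4 by more, with no test run on these shares. The widest relative spread was at ND6, whose share ran from 0.299 to 0.689%. No exon lengths were at hand for the nuclear members, so their levels were compared between libraries only, not between genes.

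The mean share of all counts taken by the mitochondrial messengers was lower in LOS, with groups that overlapped, and the mean for the nuclear subunits differed by less than its spread. The 13 mitochondrial genes held 2.57, 2.43, 2.45, 2.46 and 3.09% of counts in the 5 CON_B libraries and 2.31, 1.99, 2.36, 2.65, 2.25 and 2.26% in the 6 LOS libraries (2.60% ± 0.276 and 2.30% ± 0.212, mean ± SD). The groups overlap: LOS replicate 4 lies above 4 of the 5 controls, and CON_B replicate 5 stands above every other library. The difference of the means was -0.30 percentage points (LOS minus CON_B), and -0.18 without CON_B replicate 5. The 84 nuclear members together held 0.333% ± 0.0112 in CON_B and 0.325% ± 0.0136 in LOS.

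The ratio of mitochondrial to nuclear subunit counts needs no scaling between libraries. It was 7.77, 6.95, 7.66, 7.50 and 9.14 in CON_B and 7.12, 5.90, 7.46, 7.93, 7.47 and 6.78 in LOS (7.81 ± 0.808 and 7.11 ± 0.706). LOS replicate 2 was the lowest and CON_B replicate 5 the highest, 5 of the 6 LOS libraries lay below the control median of 7.66, and the groups overlapped. The log2 ratio of the group means was -0.13, within the pooled SD of 0.15, and without CON_B replicate 5 it was -0.072.

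Within complex I the ratio was 5.66 ± 0.619 in CON_B and 4.92 ± 0.661 in LOS. There LOS replicates 3, 4 and 5 (5.52, 5.46 and 5.39) lay above the control median of 5.27, and LOS replicates 1, 2 and 6 below it. Within complex III the ratio was 2.86 ± 0.349 and 2.72 ± 0.552. Within complex V it was 2.38 ± 0.180 and 2.12 ± 0.375. Complex IV gave 33.4, 29.2, 36.0, 34.9 and 42.4 in CON_B and 33.3, 25.7, 33.6, 33.2, 31.9 and 28.9 in LOS. All 6 LOS libraries lay below the control median of 34.9 there, while CON_B replicates 1 and 2 lay within their range. With all libraries the mean was lower in LOS in each of these 4 complexes, by more than the pooled SD on the log2 scale in complex I (-0.20, SD 0.18) and complex IV (-0.18, SD 0.17), and by less in complexes III (-0.073, SD 0.25) and V (-0.17, SD 0.21). Without CON_B replicate 5 the log2 difference in complex IV was -0.10. Without LOS replicate 2 the log2 difference was -0.14 in complex I, within the pooled SD given above. Without the same library it was -0.092 in complex V and 0.0018 in complex III, where the direction thus rests on that library. Without LOS replicate 3 the difference was -0.16 in complex III. The ratios are of counts, not per length, so they are not comparable between complexes.

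**Figure D2:**
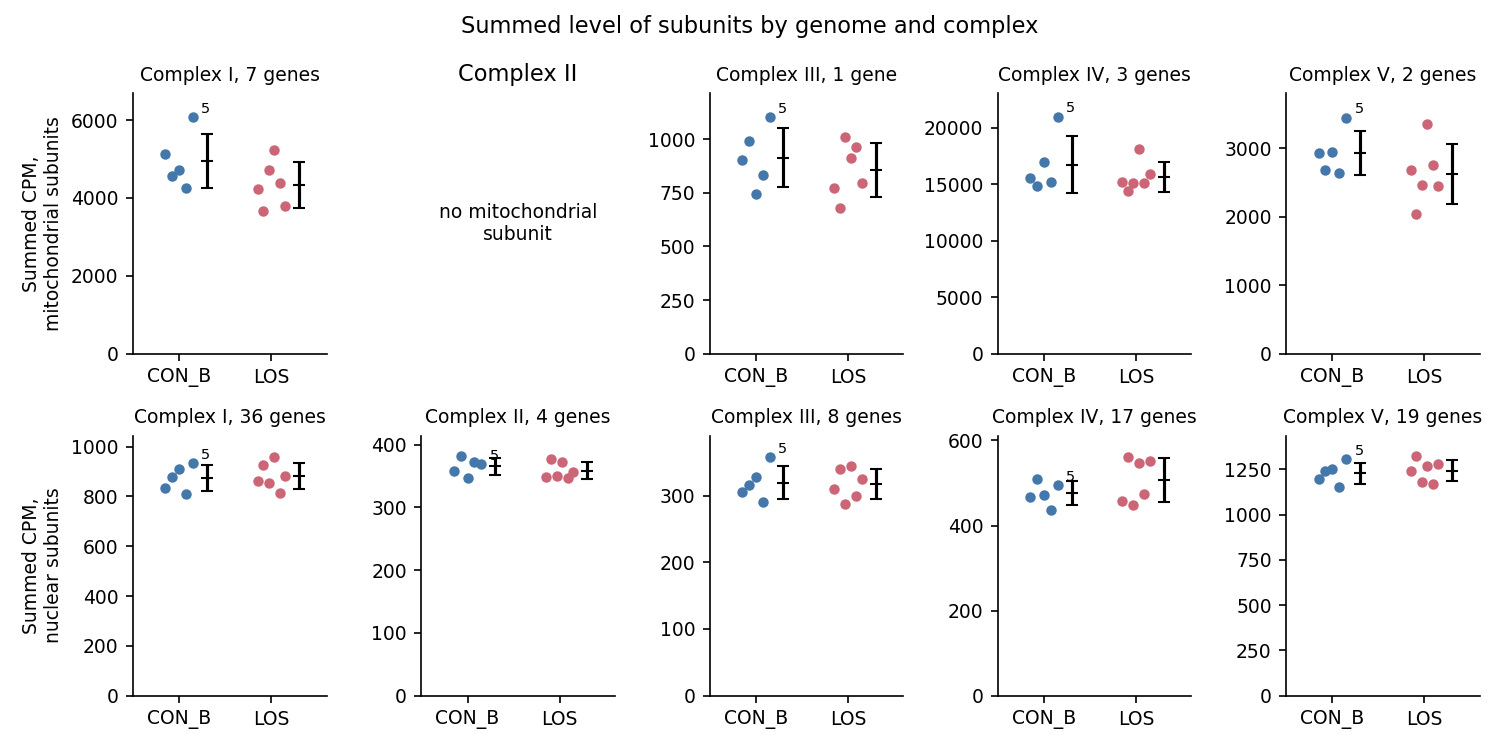
Summed CPM of the mitochondrial (upper row) and nuclear (lower row) subunits of each complex by library, with group mean ± SD beside the points (CON_B n = 5, LOS n = 6; axes start at 0 and differ between panels). The mitochondrial means lie lower in LOS in all 4 complexes that have such subunits, CON_B replicate 5 (marked 5) is the highest control there, and the groups overlap in every panel.

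Gene by gene, LOS was compared with CON_B in a model with sex as a term, across all 16946 features tested. None of the 93 members passed, against 0% of all features (edgeR's quasi-likelihood test, Benjamini-Hochberg adjusted, threshold 0.05; every member's adjusted p was at least 0.932). At an unadjusted p under 0.05, 752 features and 1 member, ND4, were found. DESeq2 called 5 features and limma voom 0, none of them a member. No member had groups without overlap, against 0.136% of all features for LOS below and 0.0944% for LOS above every control.

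All 13 mitochondrial genes had a negative log2 fold (LOS minus CON_B), with a median of -0.15. Of the 80 nuclear members tested 49 lay higher and 31 lower, with a median of 0.025. Over all features 8447 lay higher and 8499 lower, and the median was -0.00069. Scaled by library totals alone, the 13 mitochondrial genes still lay lower, but 32 nuclear members lay higher and 48 lower, so the direction of the nuclear set depends on the scaling. Without CON_B replicate 5 the mitochondrial median was -0.066, with 12 genes lower and 1, COX3, higher. The spread of single genes between fetuses was taken as the median residual SD of log2 CPM. It was 0.219 for mitochondrial members, 0.164 for nuclear members, 0.268 for annotated nuclear genes and 0.307 for all features. These sets differ in count level, and the part of level in this spread was not tested.

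**Figure D3:**
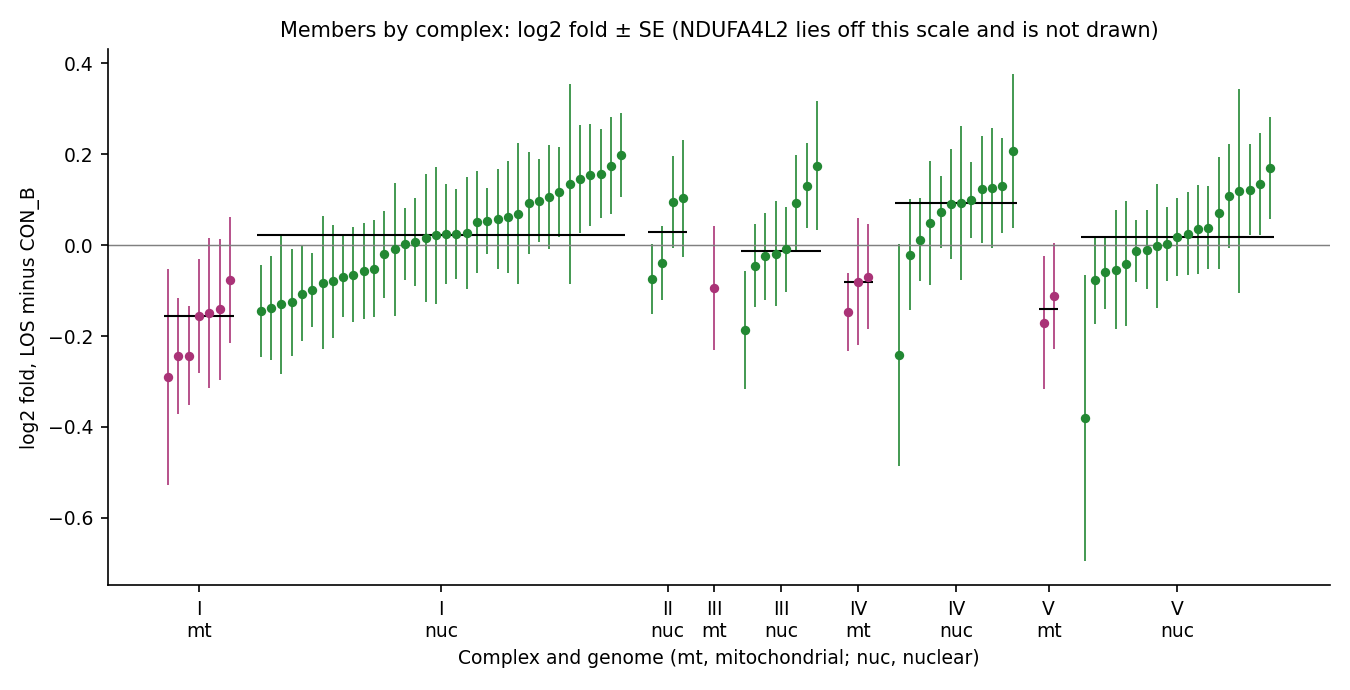
log2 fold of LOS over CON_B ± SE from edgeR for 92 of the 93 members tested (NDUFA4L2 lies off this scale), by complex and genome (purple, mitochondrial; green, nuclear), sorted within each set; black lines are the medians of the drawn genes. The mitochondrial genes all lie below 0, the nuclear genes lie on both sides, and no member passed the adjusted threshold.

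Complex I takes electrons from NADH, and all 7 of its mitochondrial genes code for parts of its proton-pumping membrane arm. ND4 was at 519, 427, 521, 457 and 643 CPM in the 5 CON_B libraries and 442, 382, 441, 474, 432 and 405 CPM in the 6 LOS libraries (513 ± 83.0 CPM in CON_B and 429 ± 32.3 CPM in LOS). All 6 LOS libraries lay below the control median, CON_B replicates 2 and 4 lay within their range, and CON_B replicate 5 was the highest of all. The log2 fold was -0.24 ± 0.11 (SE; 95% interval -0.48 to -0.0042; unadjusted p = 0.0467, adjusted p = 0.932 by edgeR's quasi-likelihood test, Benjamini-Hochberg adjusted). Without CON_B replicate 5 the log2 fold of ND4 was -0.16. With 1 library left out its unadjusted p by the same test ran from 0.0232 (CON_B replicate 2) to 0.125 (CON_B replicate 5). ND1 was at 1419, 1433, 1565, 1405 and 1773 CPM in the 5 CON_B libraries and 1377, 1021, 1290.3, 1577, 1322 and 1042 CPM in the 6 LOS libraries, lowest in LOS replicates 2 and 6, with a log2 fold of -0.24 ± 0.13. ND6 had the lowest log2 fold of the mitochondrial set, -0.29 ± 0.24, and the widest error, with 139.9, 115, 117, 109 and 173 CPM in the 5 CON_B libraries and 158, 62.1, 74.0, 145, 97.6 and 99.7 CPM in the 6 LOS libraries. For the others the log2 folds were -0.16 ± 0.13 (ND3), -0.15 ± 0.16 (ND5), -0.14 ± 0.16 (ND2) and -0.077 ± 0.14 (ND4L).

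The 36 nuclear members of complex I split into 22 higher and 14 lower in LOS (median 0.023). Their sum was 873 ± 51.9 CPM in CON_B and 882 ± 52.3 CPM in LOS. The 7 nuclear core subunits, which hold the flavin and the iron-sulfur clusters, had 5 higher and 2 lower, and the 29 accessory subunits 17 and 12. NDUFS5, an accessory subunit, was at 22.0, 26.3, 23.1, 20.4 and 20.4 CPM in the 5 CON_B libraries and 24.2, 26.2, 25.4, 28.9, 25.1 and 25.1 CPM in the 6 LOS libraries (log2 fold 0.20 ± 0.092, unadjusted p = 0.0543). All 6 LOS libraries lay above the control median, but CON_B replicate 2 lay above 5 of them. NDUFA7, also accessory, had 18.6 ± 2.22 CPM in CON_B and 20.9 ± 1.86 CPM in LOS (0.17 ± 0.11). On the lower side, NDUFS1, the largest iron-sulfur subunit, had 51.3 ± 6.22 CPM in CON_B and 46.3 ± 4.37 CPM in LOS (-0.15 ± 0.10), and NDUFB6, of the membrane arm, 18.0 ± 1.14 CPM in CON_B and 16.3 ± 2.19 CPM in LOS (-0.14 ± 0.11). The X-linked NDUFA1 and NDUFB11 had log2 folds of -0.13 ± 0.12 and 0.0028 ± 0.080.

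Complex II, which oxidises succinate and belongs to both the citric acid cycle and the respiratory chain, is wholly nuclear. SDHA, its flavoprotein, was at 184, 173, 163, 187 and 195 CPM in the 5 CON_B libraries and 178, 179, 155, 179, 169 and 166 CPM in the 6 LOS libraries (-0.075 ± 0.077), with all 6 LOS libraries below the control median and CON_B replicates 2 and 3 within their range. SDHB, the iron-sulfur subunit, had 119 ± 10.4 CPM in CON_B and 115 ± 7.34 CPM in LOS (-0.040 ± 0.082). The membrane anchors SDHC and SDHD lay slightly the other way, at 45.2 ± 6.34 CPM in CON_B and 49.3 ± 8.44 CPM in LOS (0.10 ± 0.13) and 21.5 ± 3.42 CPM in CON_B and 23.1 ± 1.50 CPM in LOS (0.10 ± 0.10). The catalytic pair and the anchor pair had opposite signs, but each estimate was smaller than its SE. SDHB was 0.019 without CON_B replicate 2, and SDHC was -0.0026 with the label's replicate number as a block.

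Complex III passes electrons from ubiquinol to cytochrome c. CYTB, which carries its haem b groups, was at 903, 989, 744, 832 and 1101 CPM in the 5 CON_B libraries and 771, 678, 1008, 910.4, 965 and 797 CPM in the 6 LOS libraries (-0.094 ± 0.14), with wide overlap. Of the 8 nuclear members, which do not include CYC1, 3 lay higher and 5 lower (median -0.014). UQCRFS1, the Rieske iron-sulfur protein, had 29.2 ± 3.32 CPM in CON_B and 28.7 ± 2.89 CPM in LOS (-0.0090 ± 0.094). The small subunits differed among themselves: UQCRB had 46.2 ± 8.89 CPM in CON_B and 39.6 ± 6.32 CPM in LOS (-0.19 ± 0.13), while UQCR10 had 39.2 ± 4.65 CPM in CON_B and 43.1 ± 3.19 CPM in LOS (0.13 ± 0.094) and UQCR11 15.2 ± 3.04 CPM in CON_B and 16.9 ± 2.53 CPM in LOS (0.18 ± 0.14). UQCRC1, a core-like accessory subunit, had 81.9 ± 5.61 CPM in CON_B and 79.3 ± 8.48 CPM in LOS (-0.045 ± 0.091).

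Complex IV, which reduces oxygen to water, had negative estimates for all 3 of its mitochondrial genes and positive ones for most of its nuclear genes. COX1 was at 12016, 11363, 13244, 11734 and 16034 CPM in the 5 CON_B libraries and 11602, 11059, 11389, 14269, 11774 and 12472 CPM in the 6 LOS libraries (-0.069 ± 0.12). COX2 was at 1437, 1492, 1445, 1411 and 1696 CPM in the 5 CON_B libraries and 1298, 1252, 1279, 1503, 1308 and 1420.2 CPM in the 6 LOS libraries (-0.15 ± 0.086), with 5 of 6 LOS libraries below the control median and LOS replicate 4 above 4 of the controls. COX3 had 2359.7 ± 520.3 CPM in CON_B and 2214 ± 184 CPM in LOS (-0.080 ± 0.14), and without CON_B replicate 5, at 3279 CPM the highest of the 11, its log2 fold was 0.055.

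Of the 13 nuclear complex IV genes tested, 11 lay higher and 2 lower in LOS (median 0.094, or 0.028 scaled by library totals and 0.042 without LOS replicate 6). Their summed level was 468, 510.3, 471, 437 and 496 CPM in CON_B and 457, 560.1, 449, 547, 473 and 551 CPM in LOS. LOS replicates 2, 4 and 6 lay above every control, and LOS replicates 1, 3 and 5 lay within the control range. COX6B1, which clamps the complex into dimers, had 59.1 ± 6.31 CPM in CON_B and 64.8 ± 7.48 CPM in LOS (0.13 ± 0.10). COX4I1, the largest nuclear subunit, had 106 ± 6.28 CPM in CON_B and 111 ± 8.69 CPM in LOS (0.073 ± 0.079), COX6A1 51.1 ± 7.20 CPM in CON_B and 55.6 ± 8.84 CPM in LOS (0.13 ± 0.13) and COX7A2L, a supercomplex assembly factor, 48.9 ± 4.73 CPM in CON_B and 53.1 ± 7.80 CPM in LOS (0.12 ± 0.12). COX7A2 and COX8A had log2 folds of 0.090 ± 0.12 and 0.012 ± 0.092, and NDUFA4, a former complex I name now placed in complex IV, 0.050 ± 0.14. On the lower side were the X-linked COX7B, at 2.31 ± 0.716 CPM in CON_B and 1.96 ± 0.471 CPM in LOS (-0.24 ± 0.24), and COX5A, at 16.0 ± 2.60 CPM in CON_B and 15.9 ± 1.47 CPM in LOS (-0.021 ± 0.12).

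Several complex IV subunits have isoforms for particular tissues, of which 4 were at or near 0 in the fibroblasts and others were low but measurable. COX4I2, the isoform of lung and of hypoxic cells, had 1 count in 1 library, COX8B, of heart and muscle, likewise 1 count in 1 library, and COX7B2 1 count in each of 2 libraries. COX6B2, the testis isoform, had at most 6 counts and was above 0 in 10 of the 11 libraries. COX7A1, the heart and muscle isoform, was measurable at 2.50, 2.37, 2.44, 2.85 and 2.33 CPM in the 5 CON_B libraries and 2.29, 2.97, 3.16, 2.27, 3.24 and 3.27 CPM in the 6 LOS libraries (0.21 ± 0.17), above 2 CPM in all 11 libraries. NDUFA4L2, a hypoxia-responsive relative of NDUFA4, was at 0.0675, 0.444, 0.136, 0.196 and 0.493 CPM in the 5 CON_B libraries and 0.246, 0.145, 1.43, 0, 0.830 and 2.43 CPM in the 6 LOS libraries. LOS replicates 3, 5 and 6 lay above every control and LOS replicate 4 at 0. Its log2 fold of 1.65 ± 0.90 (unadjusted p = 0.0931, adjusted p = 0.932 by edgeR's quasi-likelihood test, Benjamini-Hochberg adjusted) became -0.25 when the label's replicate number was added as a block. COX6A2 was not analysed here.

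Complex V, the ATP synthase, has its mitochondrial subunits in the membrane. ATP6 was at 1714, 1548, 1837, 1543 and 2108 CPM in the 5 CON_B libraries and 1721, 1065, 1239, 2011, 1706 and 1473 CPM in the 6 LOS libraries (-0.17 ± 0.15), lowest in LOS replicates 2 and 3, and ATP8 had 1178 ± 101 CPM in CON_B and 1086 ± 159 CPM in LOS (-0.11 ± 0.12). Of the 19 nuclear members 11 lay higher and 8 lower (median 0.018). In the catalytic F1 head, ATP5F1A and ATP5F1B, its alpha and beta subunits, had log2 folds of 0.0031 ± 0.081 and -0.077 ± 0.10. ATP5F1D, of the central stalk, had 69.8 ± 8.48 CPM in CON_B and 78.6 ± 9.93 CPM in LOS (0.17 ± 0.11). ATP5F1E, of the same stalk, was low, at 1.46 ± 0.490 CPM in CON_B and 1.09 ± 0.381 CPM in LOS (-0.38 ± 0.32), and without CON_B replicate 5 its log2 fold was -0.20.

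Of the 3 genes for the proton-carrying c-ring, ATP5MC3 had 24.5 ± 1.73 CPM in CON_B and 27.0 ± 3.61 CPM in LOS (0.12 ± 0.10), ATP5MC2 had 158 ± 17.3 CPM in CON_B and 174 ± 23.2 CPM in LOS (0.14 ± 0.11) and ATP5MC1 14.1 ± 1.64 CPM in CON_B and 14.2 ± 2.51 CPM in LOS. The mature c-ring protein, after import, is the same for these genes. In the peripheral stalk 1 of 4 lay higher and 3 lower, and in the nuclear part of the membrane domain 4 of 5 lay higher, with a median of 0.039. None of the 19 departed from the controls beyond the spread between fetuses by the adjusted test.

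Sex was read from the same model. Of 16946 features 8 differed between male and female fetuses (0.0472%; edgeR's quasi-likelihood test, Benjamini-Hochberg adjusted), and none of the 93 members did. Of the 13 mitochondrial genes 12 lay higher in males (median log2 difference 0.10), ND3 being the exception. That direction rests on a pair of male libraries. CON_B replicate 5 and LOS replicate 4, which stand highest in summed mitochondrial level, are both male, and without either the median was 0.050 or 0.045. Without both, 4 genes lay higher and 9 lower in males, with a median of -0.061. COX1 was at 11059 to 12016 CPM in the 5 females and 11734 to 16034 CPM in the 6 males (0.20 ± 0.12). It was 16034 and 14269 CPM in those 2 and at most 13244 CPM in the other males, and without both its log2 difference was 0.10. NDUFC1, an accessory subunit of complex I, had 3.58 ± 0.305 CPM in females and 2.84 ± 0.341 CPM in males (-0.33 ± 0.15, unadjusted p = 0.0481). The X-linked members showed no common direction: NDUFA1 0.19 ± 0.12, NDUFB11 0.13 ± 0.080 and COX7B -0.23 ± 0.25 (male minus female). In the test of whether the LOS effect differed by sex, 0% of 17583 features and no member passed (edgeR's quasi-likelihood test, Benjamini-Hochberg adjusted), 871 features and no member reached an unadjusted p under 0.05, and DESeq2 called 6 features, none of them a member.

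Since the fetuses are hybrids, reads over breed-specific bases had been assigned by the authors to the allele of either parent. Of the 84 nuclear members 57 had rows in that table and 29 had enough allelic reads to test. No mitochondrial row was in it. The labels do not state which breed was the dam, so the parent and the breed of an allele cannot be told apart. All libraries share the cross and the genome build, and the part of read mapping in the allelic shares was not tested. Over whole libraries 50.5 to 50.9% of allelic reads were maternal. Of the 29 members 4 departed from 50% (13.8%), against 20.5% of the 5700 genes tested (edgeR's quasi-likelihood test, Benjamini-Hochberg adjusted). The members' share of calls was thus not above the background.

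COX4I1 (chromosome 18, 11758912 to 11767079) leaned to the maternal allele in 11 of 11 libraries. Its maternal share was 64.7, 59.8, 61.8, 60.6 and 65.4% in the CON_B libraries and 60.7, 57.5, 66.8, 60.4, 73.3 and 59.2% in the LOS libraries, over 131 to 396 allelic reads per library (62.7% ± 4.50, SD). The groups lay on top of each other, and LOS replicate 5 was the highest. On the log2 scale of maternal over paternal reads this was 0.73 ± 0.080 (SE; adjusted p = 3.53e-07 by edgeR's quasi-likelihood test, Benjamini-Hochberg adjusted).

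The other members called were accessory subunits of complex I. NDUFA10 had a maternal share of 54.6% ± 4.39 (above 50% in 9 of 11 libraries, adjusted p = 0.0108 by edgeR's quasi-likelihood test). NDUFA9 had 55.4% ± 6.51 (8 of 11 above, adjusted p = 0.0191 by edgeR). NDUFA8 had 44.1% ± 5.97 (9 of 10 below, adjusted p = 0.0206 by edgeR). These 3 leaned less than COX4I1, and 2 of them rest on single libraries: without CON_B replicate 3 the adjusted p (edgeR) was 0.0525 for NDUFA8 and 0.0549 for NDUFA9, and without CON_B replicate 5 it was 0.0516 for NDUFA9.

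**Figure D4:**
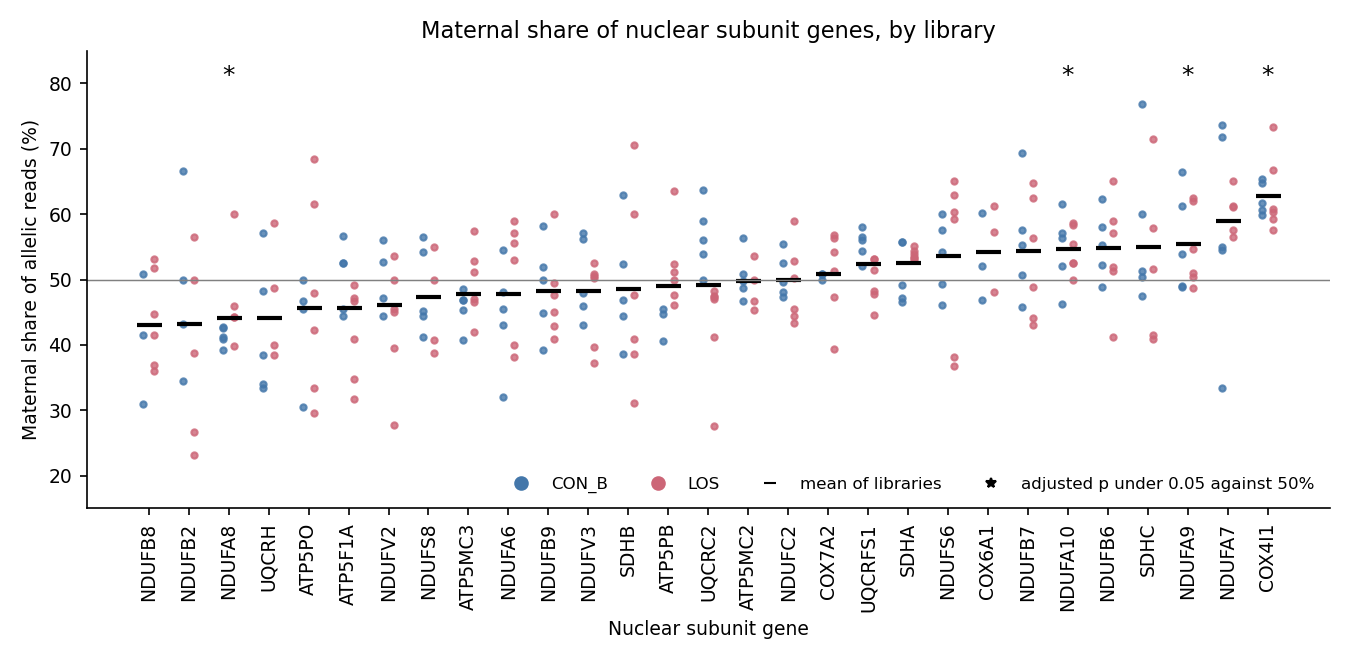
Maternal share of allelic reads (%) for the 29 nuclear members tested, in rising order of their mean; each point is a library with at least 10 allelic reads (blue, CON_B; red, LOS), black dashes are means and stars mark adjusted p under 0.05 against 50%. COX4I1 lies above 50% in all 11 libraries, while most members scatter on both sides.

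Between the groups, 0% of the 5700 genes and none of the 29 members differed in maternal share (edgeR's quasi-likelihood test, Benjamini-Hochberg adjusted), while 246 genes and 3 members had an unadjusted p under 0.05. UQCRC2, a complex III subunit, had 56.0, 53.9, 63.8, 50 and 58.9% in CON_B and 47.1, 41.2, 47.5, 47.4, 27.6 and 48.3% in LOS. The groups did not overlap, and the shallowest library had 10 allelic reads. Of all 5700 genes 0.421% had every LOS library below and 0.368% every LOS library above the controls. Among the 29 members UQCRC2 was the 1 with LOS below, and ATP5PB, of the peripheral stalk of complex V, the 1 with LOS above (44.8, 40.6 and 45.5% in the 3 CON_B libraries with at least 10 reads and 52.3, 46.1, 47.7, 51.2, 50 and 63.5% in LOS), both chosen after their values were seen. UQCRFS1 had 52.0, 54.4, 56.5, 58.0 and 56.0% in CON_B and 47.8, 44.6, 53.2, 53.1, 51.5 and 48.2% in LOS, and ATP5F1A 50.3% ± 5.17 and 41.7% ± 7.19. UQCRC2, UQCRFS1 and ATP5F1A had a lower mean maternal share in LOS, none past the adjusted threshold (edgeR, adjusted p = 0.999 for each).

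The genes that build, regulate and feed the system were read from lists of other mitochondrial functions. No gene of these lists passed the adjusted test between LOS and CON_B. Among regulators of mitochondrial biogenesis of 16 genes tested 7 lay higher and 9 lower in LOS (median log2 fold -0.0015; -0.036 to 0.013 with 1 library left out). PPARGC1A, the coactivator PGC-1 alpha that drives expression of respiratory genes, was at 11.8, 17.1, 5.97, 21.2 and 5.71 CPM in the 5 CON_B libraries and 8.20, 2.25, 9.86, 2.93, 5.43 and 1.85 CPM in the 6 LOS libraries. The 6 LOS libraries all lay below the control median and CON_B replicates 3 and 5 lay within the LOS range. The log2 fold was -1.43 ± 0.47 (unadjusted p = 0.0111, adjusted p = 0.932 by edgeR's quasi-likelihood test, Benjamini-Hochberg adjusted), and without CON_B replicate 4 it was -0.95. ESRRA, the nuclear receptor ERR alpha that PGC-1 alpha binds, had 12.4 ± 0.792 CPM in CON_B and 14.4 ± 2.57 CPM in LOS (0.22 ± 0.13, or 0.12 without LOS replicate 6), and the others named are GABPB2 (-0.18 ± 0.12) and YY1 (0.032 ± 0.067).

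Among genes for replication and transcription of mitochondrial DNA of 21 genes tested 6 lay higher and 15 lower in LOS (median log2 fold -0.074; -0.10 to -0.014 with 1 library left out). The value nearest 0 was without CON_B replicate 3. TFAM, which packages the mitochondrial genome and starts its transcription, was at 18.6, 17.5, 17.2, 18.0 and 11.9 CPM in the 5 CON_B libraries and 16.1, 11.7, 14.0, 13.5, 12.8 and 14.1 CPM in the 6 LOS libraries (-0.29 ± 0.13, unadjusted p = 0.0470). All 6 LOS libraries lay below the control median. CON_B replicate 5, the control with the largest mitochondrial share, had the lowest TFAM level of the controls, and without it the log2 fold was -0.38. MTERF2, a mitochondrial transcription termination family member, had -0.44 ± 0.25, and RRM2B and DGUOK, which supply deoxynucleotides, 0.31 ± 0.21 and 0.12 ± 0.087. RRM2B was at 8.29 CPM in LOS replicate 6, with at most 5.29 CPM in the other libraries, and without that library its log2 fold was 0.12.

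Assembly factors help to fit subunits and cofactors together. For complex I of 17 genes tested 4 lay higher and 13 lower in LOS (median log2 fold -0.092; -0.14 to -0.025 with 1 library left out). TMEM126B, of the membrane arm assembly complex, was at 8.63, 7.25, 8.48, 7.96 and 9.52 CPM in the 5 CON_B libraries and 7.95, 5.80, 7.08, 7.26, 4.90 and 5.75 CPM in the 6 LOS libraries (-0.38 ± 0.15), and TIMMDC1, of the same complex, had 20.9 ± 1.94 CPM in CON_B and 17.2 ± 2.75 CPM in LOS (-0.29 ± 0.13). Every LOS library for TMEM126B and 5 of 6 for TIMMDC1 lay below the control median. ECSIT had 0.21 ± 0.11 and NDUFAF2 0.26 ± 0.32 on the other side. The median of the list was -0.025 without LOS replicate 5. For complex IV of 21 genes tested 7 lay higher and 14 lower in LOS (median log2 fold -0.036; -0.066 to -0.0091 with 1 library left out). HIGD1A, a hypoxia-inducible partner of complex IV, had 38.3 ± 6.41 CPM in CON_B and 51.2 ± 14.7 CPM in LOS (0.40 ± 0.19), COX11, a copper chaperone, 0.16 ± 0.12, and on the lower side SCO1, another copper chaperone, -0.15 ± 0.082 and COX15, of haem A synthesis, -0.14 ± 0.10.

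For the smaller sets of assembly factors the counts were 2 higher and 2 lower for complex II (SDHAF4 0.29 ± 0.19, SDHAF1 0.24 ± 0.24, SDHAF3 -0.25 ± 0.16, SDHAF2 -0.027 ± 0.14). For complex III they were 1 and 4 (UQCC3 0.14 ± 0.14, LYRM7 -0.26 ± 0.17, UQCC1 -0.10 ± 0.11), and for complex V 2 and 2 (ATPAF2 0.079 ± 0.15, ATPAF1 0.060 ± 0.15, TMEM242 -0.11 ± 0.11, FMC1 -0.039 ± 0.15). None of these values stood out from the spread between fetuses by the adjusted test.

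**Figure D5:**
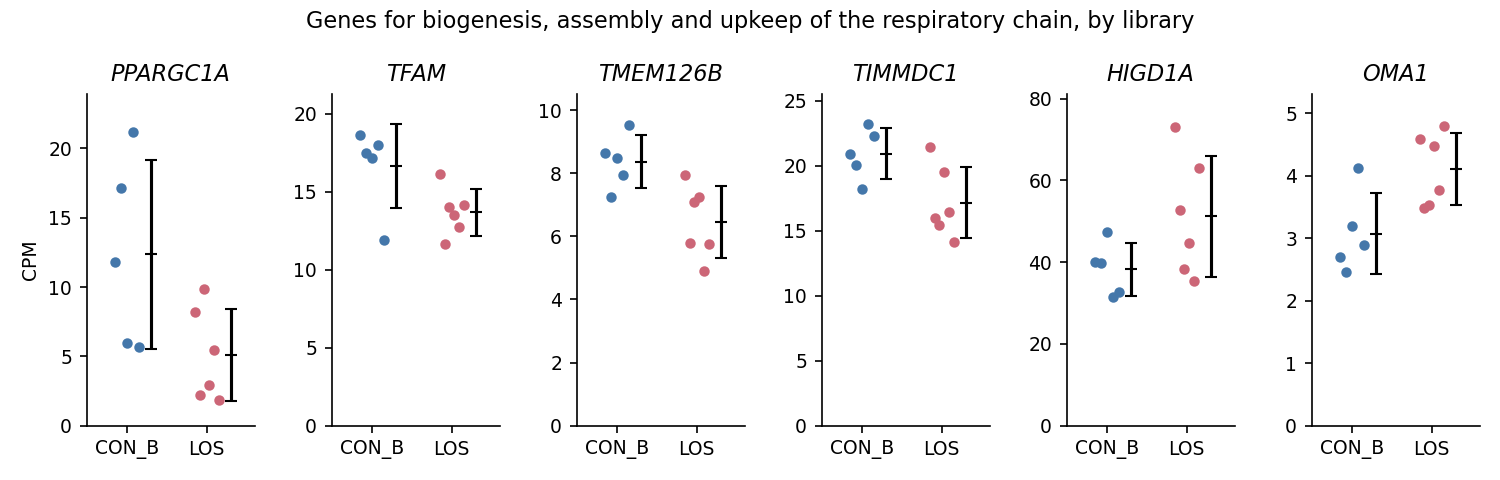
CPM by library of 6 genes of biogenesis (PPARGC1A), mitochondrial DNA (TFAM), assembly (TMEM126B, TIMMDC1, HIGD1A) and protein quality control (OMA1), with group mean ± SD beside the points (CON_B n = 5, LOS n = 6; axes start at 0). The LOS means are lower for the first 4 genes and higher for HIGD1A and OMA1, and the groups overlap for all 6.

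The mitochondrial ribosome translates the 13 messengers, and of 78 genes tested 48 lay higher and 30 lower in LOS (median log2 fold 0.024; -0.013 to 0.053 with 1 library left out). MRPL58 had 0.28 ± 0.12 and MRPL9 0.18 ± 0.090, and on the lower side MRPL49 -0.23 ± 0.12 and MRPS22 -0.16 ± 0.11. Among genes for processing and translation of mitochondrial RNA of 26 genes tested 15 lay higher and 11 lower in LOS (median log2 fold 0.030; -0.0093 to 0.063 with 1 library left out). HSD17B10 and ELAC2, parts of the machinery that cuts transfer RNAs from the precursors, had -0.20 ± 0.11 and -0.26 ± 0.15. The translation factors GFM2 and TUFM had 0.14 ± 0.11 and 0.11 ± 0.091. The mitochondrial ribosome was thus near 0 in its median, like the nuclear subunits.

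Among electron carriers and coenzyme Q genes of 21 genes tested 11 lay higher and 10 lower in LOS (median log2 fold 0.023; -0.034 to 0.037 with 1 library left out). COQ4 had 0.19 ± 0.12, COQ10B 0.18 ± 0.16, COQ6 -0.34 ± 0.21 and COQ7 -0.14 ± 0.15. In the citric acid cycle of 19 genes tested 5 lay higher and 14 lower in LOS (median log2 fold -0.040; -0.062 to 0.022 with 1 library left out), the direction turning without CON_B replicate 3 or LOS replicate 5. PC, the pyruvate carboxylase, was at 43.5, 50.8, 46.3, 36.1 and 85.2 CPM in the 5 CON_B libraries and 50.1, 78.3, 75.7, 51.2, 78.5 and 96.3 CPM in the 6 LOS libraries (0.48 ± 0.24). Every LOS library lay above the control median for PC, and CON_B replicate 5 above all LOS libraries but replicate 6. IDH2 had 0.37 ± 0.24, PDHB -0.15 ± 0.10 and IDH3B -0.10 ± 0.10.

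Among the adenine nucleotide carriers and porins of 7 genes tested 3 lay higher and 4 lower in LOS (median log2 fold -0.014; -0.051 to 0.041 with 1 library left out), with VDAC2 at 0.13 ± 0.10, SLC25A3 at 0.091 ± 0.092, VDAC3 at -0.046 ± 0.067 and SLC25A4 at -0.036 ± 0.093. Among mitochondrial chaperones and proteases of 15 genes tested 9 lay higher and 6 lower in LOS (median log2 fold 0.048; 0.034 to 0.073 with 1 library left out). OMA1, a protease of the inner membrane activated by stress, was at 2.70, 2.47, 3.19, 4.12 and 2.89 CPM in the 5 CON_B libraries and 4.59, 3.48, 3.54, 4.47, 3.77 and 4.80 CPM in the 6 LOS libraries (0.45 ± 0.16, unadjusted p = 0.0185). Each LOS library lay above the control median, and CON_B replicate 4 lay within their range. LONP1 had 0.21 ± 0.11, TRAP1 -0.14 ± 0.077 and HTRA2 -0.16 ± 0.16.

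Beside these lists, 29 of the 30 proliferation genes had a lower estimate in LOS (median -0.42), with LOS replicate 1 the highest of all libraries in their sum and a median of -0.64 without it, and 77 of 80 cytosolic ribosomal protein genes a higher one (median 0.15). None of either list passed the adjusted test. The part of these sets in the values of the oxidative phosphorylation genes was not tested.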

How the data were processed

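Members and gene lists were chosen with earlier results of these data known. The authors deposited a table of estimated counts per gene and assembled locus, and a table of whole-number counts of allelic reads per gene, maternal and paternal. Another deposited table, the product of these, was not used. Per the submitters' processing notes the tools include HISAT2 2.1.0 and StringTie 2.1.4, Salmon 0.11.1 and Cufflinks 2.2.1, SAMtools 1.8, Picard 2.22.4, GATK, FastQC 0.11.7 and edgeR 3.36.0, with build ARS-UCD1.2. Their roles, the strand setting and the treatment of reads that match several places, such as processed pseudogenes or nuclear copies of mitochondrial DNA, are not stated in the sources used here. Of the deposited estimated counts 71.2% were whole, and the rest were rounded for the tests.

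Counts were filtered with edgeR's filterByExpr, scaled with TMM factors and fitted over all 11 libraries with group and sex (edgeR 4.0.16 quasi-likelihood test, R 4.3.3, 8 residual degrees of freedom, Benjamini-Hochberg over all features). The interaction of group and sex was a second model. Standard errors are those implied by the quasi-likelihood statistic. CPM values use TMM library sizes, and the deposited counts summed to 12084822 to 19297167 per library. Nothing in the labels gives a batch. Each library is 1 culture of 1 fetus, so p-values measure the spread between these cultures.

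Maternal and paternal reads of autosomal genes were fitted with library as a block, for genes with a mean of at least 20 allelic reads per library and at least 10 in 3 libraries of each group. Shares are given for libraries with at least 10 reads.

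Alternatives were DESeq2 1.42.0, limma voom (limma 3.58.1), other scalings and filters, models without sex or with the label's replicate number, other read minimums, and each library left out in turn. Scripts were tested on simulated data. Figures used matplotlib 3.10.9.

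The libraries left out together in the sex comparison were chosen after seeing the data. Named were all mitochondrial members, members called in any test, the 2 nuclear members per complex with the smallest p in each direction, tissue isoforms with their partners, X-linked members, and 2 genes per direction of each other mitochondrial list. Proliferation and cytosolic ribosomal genes are given as counts. ATP5F1A, ATP5MC1, ATP5MC2, COX7A2L, ATP5PB, NDUFC1, UQCRC2 and UQCRFS1 were added for their role or after their values were seen.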

Additional observations from a re-analysis of the deposited data

Results flagged for a closer look

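In 126 groups of libraries the distance of the highest or lowest library from its nearest neighbour was set against the whole range of the group. Chance marks about 1 in 20 such groups, and 6 were marked. In CON_B, replicate 5 stood above the other controls in the mitochondrial share of counts (3.09%, next 2.57%). The same library stood apart in the summed level of the 13 mitochondrial genes (31624 CPM, next 25348), in COX2 (1696 CPM, next 1492) and in COX3 (3279 CPM, next 2253). In LOS, replicate 4 stood above the others in the summed mitochondrial level (27669 CPM, next 23264). NDUFB11, an X-linked subunit of complex I, was lowest in CON_B replicate 1 (22.7 CPM, next 26.2).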

How the results depend on the processing

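No member passed the adjusted test of LOS against CON_B under any alternative or with any library left out. DESeq2 called 5 features there, 22 for sex in place of 8, and 6 for the interaction in place of 0, no member among them. With 1 library left out the calls for sex ranged from 3 to 7. For the maternal share between groups they ranged from 0 to 1, and for members away from 50% from 2 to 5. The summed nuclear level of complex II (log2 -0.028) was -0.088 by library totals, -0.091 by nuclear totals and 0.029 as a mean of log2 CPM.

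Direction turned in genes near 0. By library totals COX8A was -0.054, NDUFA4 -0.0077, NDUFB11 -0.061, ATPAF1 -0.0051 and YY1 -0.033. NDUFB11 was -0.0058 by upper quartiles, -0.00012 with the stricter filter and -0.011 without sex. COX5A was 0.0027 by voom. With 1 library left out the ranges were COX3 -0.13 to 0.055, COX5A -0.091 to 0.053, NDUFB11 -0.033 to 0.046, SDHB -0.086 to 0.019, NDUFA4 -0.032 to 0.18, COX8A -0.026 to 0.068, SDHAF2 -0.090 to 0.039, YY1 -0.0015 to 0.054 and SLC25A4 -0.081 to 0.027. Of the 69 named genes with a log2 fold of at least 0.1 in size, 42 moved by over 1.5 times when some 1 library was left out, and 0 turned. NDUFA4L2 passed the filter on low counts in only 8 of the 11 fits with a library left out. Among members the ranges included ND2 -0.21 to -0.053, ND5 -0.23 to -0.029, ND6 -0.49 to -0.18, SDHC 0.018 to 0.18, COX7B -0.35 to -0.067, COX6A1 0.049 to 0.19 and ATP5F1E -0.52 to -0.20. The cause was not tested.

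The medians of lists were mostly nearer 0 than 0.1, and several turned. With 1 library left out the ranges for the nuclear subunits were -0.010 to 0.046 in complex I, -0.019 to 0.079 in II, -0.042 to 0.040 in III and -0.017 to 0.059 in V. By library totals they were -0.040, -0.037, -0.072 and -0.043, and the mitochondrial ribosome was at -0.039, coenzyme Q at -0.043, RNA processing at -0.029 and chaperones at -0.014.

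With the replicate number as a block, 0 features were called. SDHC was -0.0026, NDUFA4L2 -0.25, COX5A 0.086, COX8A -0.012, NDUFB11 -0.036, ATPAF1 -0.10 and SLC25A4 0.071. The medians were 0.039 for the citric acid cycle, 0.035 and 0.015 for assembly of complexes III and IV, and 0.071 for carriers and porins. The libraries share only a number: the correlation of their deviations was 0.26, 0.16, -0.17, -0.16 and -0.038 for numbers 1 to 5. The ratios of mitochondrial to nuclear counts do not depend on scaling, so no other scaling was run for them. The mitochondrial share was not recomputed as a mean of log2 CPM. The number of fetuses limits the precision, and genes under about 1 CPM rest on few counts.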

Other observations

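Assembled loci that cover other stretches of the mitochondrial chromosome were also in the count table. The locus at 431 to 1385 on chromosome M had 601 ± 165 CPM in CON_B (n = 5) and 555 ± 87.5 CPM in LOS (n = 6). The locus at 1453 to 3023 had 931 ± 132 and 804 ± 123 CPM. Both groups overlap at each locus. A locus on the opposite strand at 1 to 363 had 8.12 ± 1.16 and 10.2 ± 3.86 CPM (log2 fold 0.33 ± 0.25), with groups that overlapped. ND6, on the same strand, had a negative estimate (-0.29 ± 0.24), and the sources do not say whether the counting used strand. RNA had been depleted of ribosomal RNA before sequencing, so levels at ribosomal positions depend on that step.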
